A study of Homo sapiens with 6 samples.

Results

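The gamma protocadherins are cell adhesion proteins of the cadherin superfamily, and this account follows the 7 genes of the family that have a row in an RNA sequencing table of U87MG cells. The members are all rows whose gene name starts with PCDHG: PCDHGA1, PCDHGA2, PCDHGA4, PCDHGA9, PCDHGA10, PCDHGA11 and PCDHGC5, which are 7 of the 1630 genes listed and 7 of the 22 gamma protocadherin genes of the human cluster. U87MG is an established human glioblastoma line. One group held 3 libraries of U87MG cells with a short hairpin RNA against CREPT (genotype label CREPT Knockdown, shRNA label shCREPT), and it was set against 3 libraries of U87MG cells with a control hairpin (genotype label NC, shRNA label shControl). Both groups thus carried a hairpin. The labels name no hairpin sequence, time after delivery, pool or clone, and they do not say whether the libraries of a group came from separate cultures, so each p-value covers no more than library-to-library spread, part or all of which could be technical. CREPT, which RPRD1B encodes, is known as a partner of the RNA polymerase II tail and as a regulator of transcription. RPRD1B has no row in the table, so the knockdown itself was not analysed here.

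Each gamma protocadherin gene has its own promoter and its own large variable exon, which encodes the extracellular cadherin repeats, the membrane span and the first part of the cytoplasmic tail. That exon is spliced to a set of constant exons shared by the whole cluster, which encode the common end of the tail. In the brain, neurons and astrocytes express several of these isoforms, and matching isoforms on touching cells bind each other. Promoter choice in the cluster is known to depend on CTCF and cohesin, which bring distant enhancers to individual variable promoters, and the C-type genes at the end of the cluster are known to be regulated apart from the A and B types.

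In the deposited values, which are normalized expression values of a unit that the headers do not name, 5 of the 7 genes were lower in shCREPT than in shControl libraries and 2 were higher. PCDHGA9, the most abundant member in every library, was 3.73-fold lower in shCREPT, and PCDHGA1, PCDHGA2, PCDHGA4 and PCDHGC5 were 2.09-fold to 2.23-fold lower. PCDHGA10 and PCDHGA11, whose variable exons lie next in line after that of PCDHGA9 among the A-type genes, were 3.23-fold and 3.90-fold higher in shCREPT. The summed value of the 7 genes was 8.09 ± 0.558 in shCREPT libraries and 19.2 ± 1.53 in shControl libraries (SD, n = 3 each), so the sum was 2.37-fold lower. The 5 lower genes summed to 6.86 ± 0.469 in shCREPT and 18.8 ± 1.56 in shControl, whereas the 2 higher genes summed to 1.24 ± 0.229 in shCREPT and 0.363 ± 0.155 in shControl (SD, n = 3 each). The 3 genes PCDHGA2, PCDHGA10 and PCDHGA11 were too low for the filter of the main test, as given below.

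All genes of the table carry the authors' mark of significance, and in the authors' deposited table no log2 fold change is smaller in size than 1.0009 and no adjusted p-value is above 0.0497. Having a row is therefore already the outcome of this same comparison, and no test here on a member is independent of it. The other 15 gamma protocadherin genes have no row, and nothing is known here of their levels. The values summed to between 31894 and 33331 per library over the listed genes, and the read depth behind them is unknown. In bulk RNA, fewer cells that express a gene and less of its RNA per cell cannot be told apart.

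The gene structure sets what a read can tell about these genes. In the GENCODE v29 gene models on GRCh38, 2181 exonic bases at the end of the cluster belong to all 22 genes. They are exon 2 at chr5:141494807-141494865 with 59 bases, exon 3 at chr5:141505393-141505481 with 89 bases, and exon 4 at chr5:141510947-141512979 with 2033 bases, which ends in the untranslated region. These shared bases make up 32.4% of the exonic length of PCDHGA2, 32.8% of PCDHGA10, 34.9% of PCDHGA1, 37.5% of PCDHGA11, 43.7% of PCDHGC5, 44.6% of PCDHGA4 and 45.9% of PCDHGA9. The variable exons of the members, by contrast, overlap no exon of another gamma gene and no exon of any other gene on either strand. The coding junctions of the 7 members are shown because they mark where a read stops being specific to a gene. Each line holds the last 24 bases of the variable exon in lower case and the first 24 bases of exon 2 in capitals, 5′ to 3′ on the plus strand of chromosome 5.
PCDHGA1: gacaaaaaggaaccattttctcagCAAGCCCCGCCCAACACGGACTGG
PCDHGA2: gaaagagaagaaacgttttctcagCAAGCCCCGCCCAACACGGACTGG
PCDHGA4: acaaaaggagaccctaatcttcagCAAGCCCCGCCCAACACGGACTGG
PCDHGA9: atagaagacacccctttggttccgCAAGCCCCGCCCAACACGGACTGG
PCDHGA10: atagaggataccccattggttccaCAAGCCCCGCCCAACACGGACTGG
PCDHGA11: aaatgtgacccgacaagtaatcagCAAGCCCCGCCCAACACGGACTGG
PCDHGC5: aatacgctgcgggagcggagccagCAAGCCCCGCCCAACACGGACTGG
The capital bases were the same in all 22 genes, while the 7 lower-case ends all differed. The submitters' processing notes name HTSeq, a read counter, without its mode, so how reads of the shared exons were assigned or dropped is unknown. If such reads were counted for every gene they touch, the members would share part of their values. In shControl, PCDHGA11 had 0.06, 0.06 and 0.17 where PCDHGA9 had 9.18, 9.37 and 11.43, and any shared part was not tested.

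The variable exons are alike but not interchangeable. Over the 21 pairs of members, the aligned bases of 2 variable exons were 61.9% to 79.2% identical, the highest between PCDHGA1 and PCDHGA2 and the lowest between PCDHGA10 and PCDHGC5. Of the 50-base windows of the PCDHGA9 variable exon, 1.31% also occurred in the variable exon of another gamma gene, against 11.6% for PCDHGA10, 1.20% for PCDHGA11, 1.57% for PCDHGA4, 11.7% for PCDHGA1, 14.4% for PCDHGA2 and 0% for PCDHGC5. PCDHGA9 and PCDHGA10 had 0 such windows in common, and PCDHGA10 and PCDHGA11 had 4. With members of the other direction, PCDHGA10 had 73 in common with PCDHGA2, 55 with PCDHGA1, 14 with PCDHGA4 and 0 with PCDHGC5. Reads that lie wholly within shared windows cannot be assigned with certainty. Among the members, PCDHGA1, PCDHGA2 and PCDHGA10 had the largest shares of such windows.

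PCDHGA9 (ENSG00000261934; variable exon at chr5:141402953-141405376, GRCh38, 2424 bases) encodes an A-type isoform that has been described as a tumour suppressor in gastric cancer cells. Its normalized value was 2.82, 2.81 and 2.41 in the shCREPT libraries, against 9.18, 9.37 and 11.43 in the shControl libraries. The groups did not overlap, and the highest shCREPT library stayed far below the lowest shControl library. On the log2(value + 1) scale, PCDHGA9 fell by 1.57 ± 0.11 (SE; limma adjusted p = 2.12e-05). In the authors' deposited table its log2 fold change was −1.88.

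The other 4 genes that were lower in shCREPT lay just past the authors' cutoff. Their log2 fold changes in the authors' deposited table were −1.02 to −1.14. No listed gene has a change smaller in size than 1.0009, and a weaker fall would have no row. The cutoff limits how small a listed change can be but not how large. Whether the closeness of the 4 values is a trait of the family was not tested. PCDHGA4 (ENSG00000262576), another A-type isoform, had 1.70, 1.70 and 1.72 in shCREPT, against 3.21, 3.56 and 4.09 in shControl. PCDHGC5 (ENSG00000240764), a C-type isoform whose rat protein is known to bind a GABA-A receptor subunit, had 1.47, 1.35 and 0.80 in shCREPT, against 2.27, 2.36 and 2.95 in shControl. The third shCREPT library was the low one for PCDHGC5, while the 3 shCREPT values of PCDHGA4 were nearly equal. PCDHGA1 (ENSG00000204956), the first gene of the cluster, had 0.84, 0.73 and 1.02 in shCREPT, against 1.79, 2.26 and 1.36 in shControl. PCDHGA2 (ENSG00000081853), its neighbour, had 0.40, 0.42 and 0.38 in shCREPT, against 1.08, 0.86 and 0.74 in shControl. In none of these genes did the groups overlap. On the log2(value + 1) scale PCDHGA4 fell by 0.77 ± 0.09 (SE; limma adjusted p = 0.000228). PCDHGC5 fell by 0.685 ± 0.15 (SE; limma adjusted p = 0.0035), and PCDHGA1 fell by 0.58 ± 0.14 (SE; limma adjusted p = 0.00524).

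The 2 genes with the opposite direction are both A-type isoforms at very low values. PCDHGA10 (ENSG00000253846; variable exon at chr5:141413176-141415611) had 0.82, 1.0 and 0.76 in shCREPT, against 0.46, 0.15 and 0.19 in shControl. PCDHGA11 (ENSG00000253873; variable exon at chr5:141421195-141423660), a gene whose promoter has been reported as methylated in astrocytomas, had 0.26, 0.50 and 0.37 in shCREPT, against 0.06, 0.06 and 0.17 in shControl. The groups overlapped in neither gene, but 1 shControl library lay above the other two in each, replicate 1 for PCDHGA10 and replicate 3 for PCDHGA11. The log2 ratio of group means was 1.69 for PCDHGA10 and 2.34 without shControl replicate 1, and it was 1.96 for PCDHGA11 and 2.65 without shControl replicate 3, so the size of each ratio depends on that control library. In the authors' deposited table the log2 fold changes were 1.70 for PCDHGA10 and 1.94 for PCDHGA11.

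**Figure D1:**
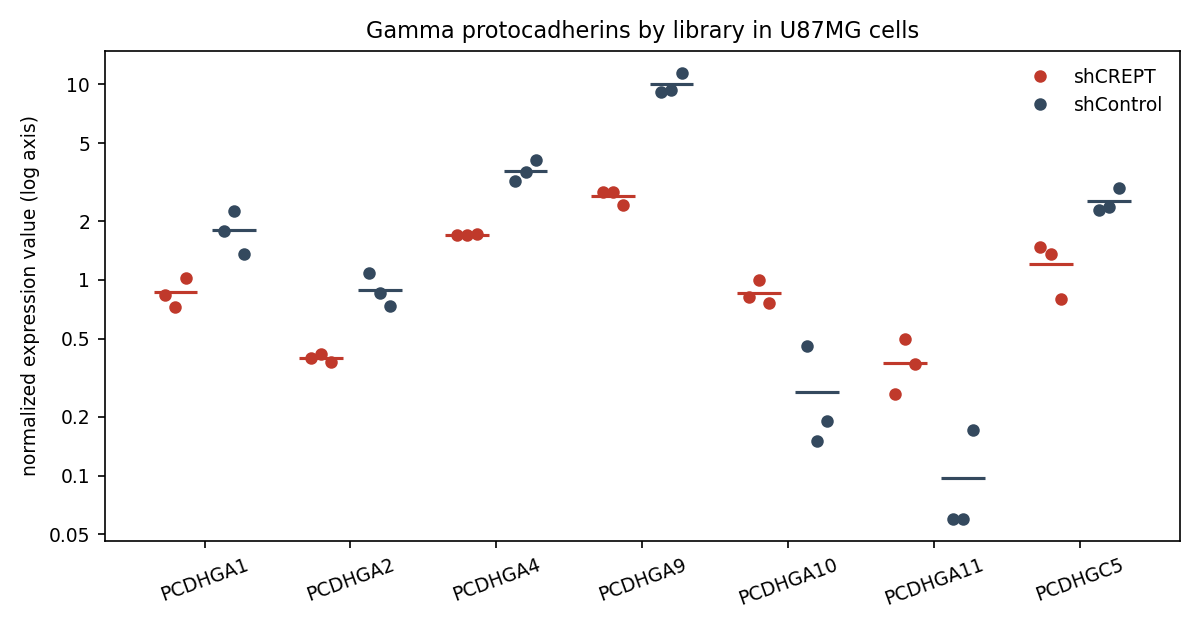
Normalized expression value (log axis) of each gamma protocadherin in each library, with shCREPT in red on the left and shControl in dark blue on the right of each gene; points are libraries and short lines are group means (n = 3 each). PCDHGA10 and PCDHGA11 are the 2 genes whose shCREPT points all lie above the shControl points, and the other 5 genes have all shCREPT points below.

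The main test kept genes that reached a value of 1 in 3 or more libraries and fitted limma to log2(value + 1) of 1184 genes, with Benjamini-Hochberg adjustment over all of them and a threshold of 0.05. Of the members, 4 passed the filter, PCDHGA1, PCDHGA4, PCDHGA9 and PCDHGC5, and all 4 were called lower. Of all 1184 genes 97.9% were called, 57.3% lower and 40.6% higher, since the table holds selected genes, so the members' count says nothing particular about the family. The median log2 change was −0.73 over these 4 members and −0.76 over all tested genes. PCDHGA4 and PCDHGA9 reached 1 in all 6 libraries, whereas PCDHGC5 reached it in 5 and PCDHGA1 in 4, so PCDHGA1 and PCDHGC5 passed only with the help of shControl, where they are higher. PCDHGA2 and PCDHGA10 each reached 1 in 1 library and PCDHGA11 in 0. Without the filter all 7 members were called, 5 lower and 2 higher, where 91.8% of the 1630 genes were called, 54.4% lower and 37.4% higher. In that fit PCDHGA2 fell by 0.43 ± 0.09, PCDHGA10 rose by 0.56 ± 0.12 and PCDHGA11 rose by 0.33 ± 0.10 on the log2(value + 1) scale (SE; limma adjusted p = 0.00392, 0.00399 and 0.016). The added 1 shrinks the change of genes this low, which is why these values are far smaller than the log2 ratios of the means. The groups of libraries did not overlap in 7 of the 7 members and in 93.3% of all listed genes, 55.5% with every shCREPT value below and 37.8% with every shCREPT value above the shControl values.

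The size of the falls depended on how the libraries were scaled. Median-of-ratios rescaling over the listed genes lifted the shCREPT values by a log2 difference of 0.88 relative to shControl and moved the median change of the tested genes from −0.76 to −0.13. Such rescaling takes the median gene as unchanged, but every listed gene was selected for a change. The median log2 fold change over the listed genes was −1.138 in the authors' deposited table, so falls near that size are moved close to 0 by construction. A call lost under the rescaling therefore does not show that a gene is unchanged, and which scaling is right cannot be decided from selected genes. PCDHGA9 kept its call under the rescaling, at −0.85 on that scale (limma adjusted p = 0.000384). PCDHGA1, PCDHGA4 and PCDHGC5 kept their sign and lost their call, with log2 changes of −0.10, −0.14 and −0.13 (limma adjusted p = 0.519, 0.195 and 0.46). With the same rescaling and no filter, a setting added after the data were seen, PCDHGA2 had −0.10 (limma adjusted p = 0.299) while PCDHGA10 and PCDHGA11 rose by 0.86 and 0.49 (limma adjusted p = 0.000471 and 0.00503). PCDHGA9 thus fell, and PCDHGA10 and PCDHGA11 rose, under both scalings. Because the rescaling lifts shCREPT relative to shControl, the rises under it are no added support. Over all genes the same rescaling called 869 of 1184, 377 lower and 492 higher, and without the filter 1094 of 1630, 455 lower and 639 higher, so the balance of directions turned against that of the values as deposited.

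**Figure D2:**
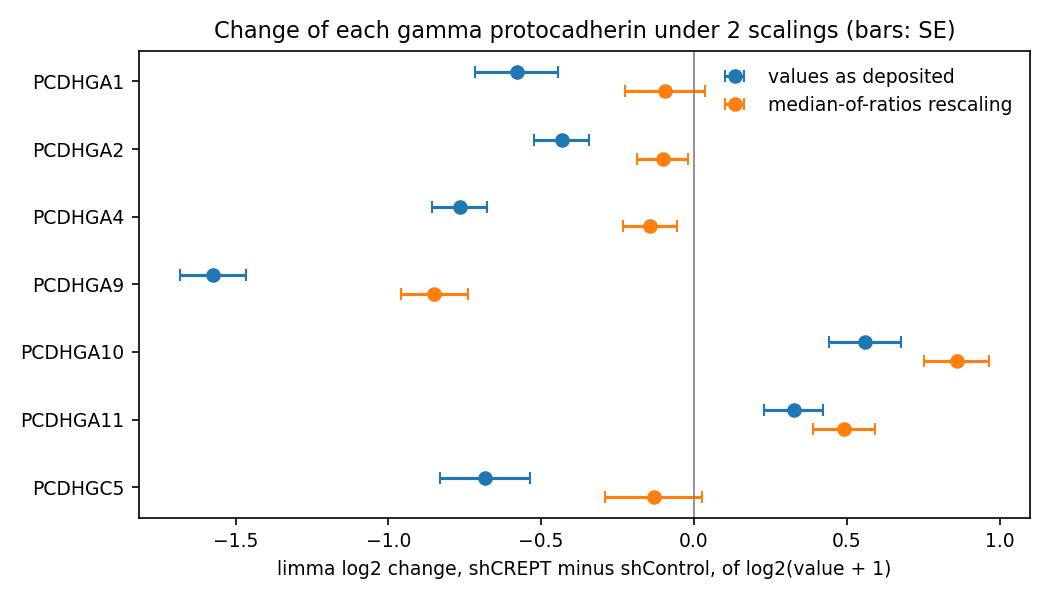
Limma log2 change of log2(value + 1), shCREPT minus shControl, for each gamma protocadherin without a filter on low values, with values as deposited in blue and after median-of-ratios rescaling in orange; bars are SE (n = 3 libraries in each group). PCDHGA9 stays below 0 and PCDHGA10 and PCDHGA11 stay above 0 under both, while the other 4 genes move close to 0 under the rescaling.

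Ratios between members inside a library do not depend on the scaling of that library. They describe the makeup of the deposited values. The handling of shared-exon reads and any scaling by gene length behind those values are unknown. PCDHGA9 made up 33.1% ± 0.82 of the summed value of the 7 genes in shCREPT libraries and 51.9% ± 2.34 in shControl libraries (SD, n = 3 each). PCDHGA10 made up 10.6% ± 1.0 in shCREPT and 1.42% ± 0.978 in shControl, and PCDHGA11 made up 4.66% ± 1.40 in shCREPT and 0.489% ± 0.28 in shControl. PCDHGA4 held 21.2% ± 1.66 in shCREPT and 18.8% ± 0.917 in shControl (SD, n = 3 each), with libraries that did not overlap. The shares of PCDHGC5, PCDHGA1 and PCDHGA2 overlapped between the groups: PCDHGC5 held 10.7% to 17.7% in shCREPT and 12.6% to 14.1% in shControl libraries, PCDHGA1 held 8.6% to 13.7% in shCREPT and 6.5% to 12.1% in shControl, and PCDHGA2 held 4.8% to 5.1% in shCREPT and 3.5% to 6.0% in shControl. Because shares add up to a whole, the lower share of PCDHGA9 and the higher shares of the others are not separate results. The shares refer to the 7 listed genes alone and not to the whole cluster.

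The ratio of PCDHGA9 to each other member was lower in every shCREPT library than in every shControl library. PCDHGA9 over PCDHGA4 was 1.66, 1.65 and 1.40 in shCREPT, against 2.86, 2.63 and 2.79 in shControl. PCDHGA9 over PCDHGA10 was 3.44, 2.81 and 3.17 in shCREPT, against 19.96, 62.5 and 60.2 in shControl. The groups were well apart in both ratios, and the wide range of the second in shControl follows the single high PCDHGA10 value there. PCDHGA9 over PCDHGA11 was 5.62 to 10.8 in shCREPT and 67.2 to 156 in shControl. For PCDHGA4, PCDHGC5, PCDHGA1 and PCDHGA2 the mean log2 ratio differed by −0.75 to −0.85 between the groups, and for PCDHGA10 and PCDHGA11 by −3.75 and −3.99. Each of the 6 ratios gave an exact two-sided permutation p of 0.1, also after Benjamini-Hochberg adjustment over the 6, which is the smallest p that 3 against 3 libraries allow. PCDHGA9 was taken as the base of the ratios after its values were seen.

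**Figure D3:**
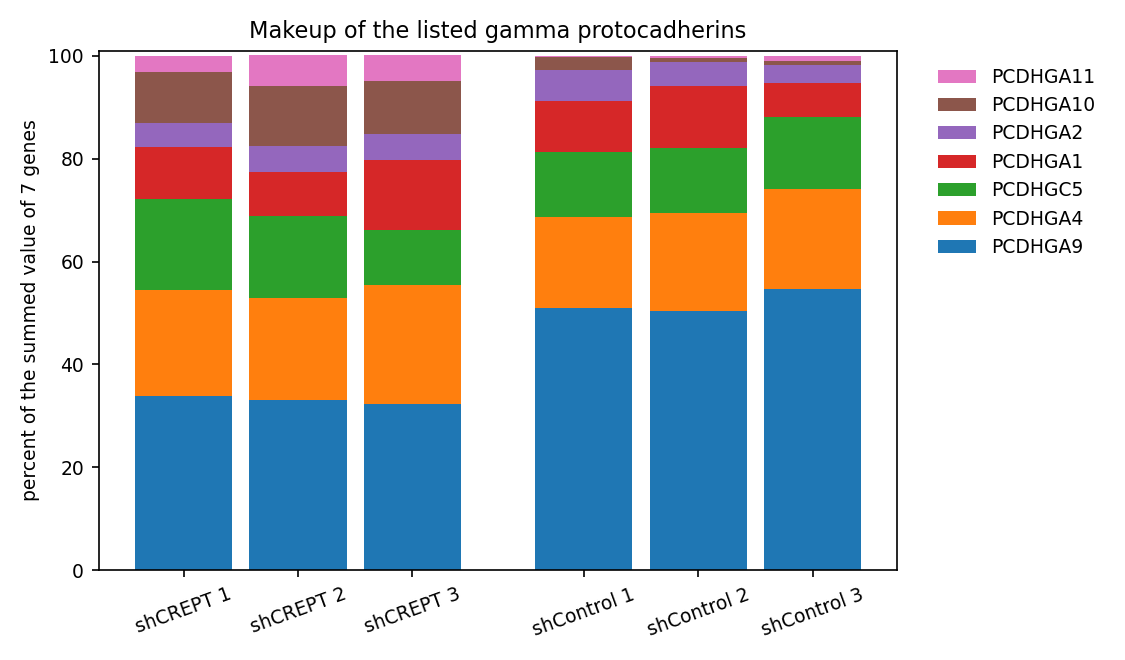
Percent of the summed normalized value of the 7 listed gamma protocadherins taken by each gene in each library, shCREPT libraries on the left and shControl libraries on the right; each bar is 1 library. PCDHGA9 takes 32.3% to 33.9% in shCREPT libraries and 50.3% to 54.6% in shControl libraries, and PCDHGA10 takes 9.9% to 11.8% in shCREPT and 0.8% to 2.5% in shControl.

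The order of the levels was similar in both groups. On the deposited scale PCDHGA9 was first and PCDHGA4 was second in every library. In shCREPT they were followed by PCDHGC5 with a mean of 1.21 ± 0.357, PCDHGA1 with 0.863 ± 0.146, PCDHGA10 with 0.86 ± 0.125, PCDHGA2 with 0.40 ± 0.02 and PCDHGA11 with 0.377 ± 0.12 (SD, n = 3). The libraries of PCDHGC5 and PCDHGA1, of PCDHGA1 and PCDHGA10, and of PCDHGA2 and PCDHGA11 overlapped there, so those neighbours could not be ordered. In shControl the order was PCDHGA9 with 9.99 ± 1.25, PCDHGA4 with 3.62 ± 0.443, PCDHGC5 with 2.53 ± 0.369, PCDHGA1 with 1.80 ± 0.45, PCDHGA2 with 0.893 ± 0.172, PCDHGA10 with 0.267 ± 0.169 and PCDHGA11 with 0.0967 ± 0.0635 (SD, n = 3). Of these neighbours PCDHGA10 and PCDHGA11 alone overlapped, but within each shControl library PCDHGA10 was above PCDHGA11. PCDHGA10 thus ranked 6 in every shControl library and 4 or 5 in the shCREPT libraries. Among all 1630 listed genes the 6-library mean of PCDHGA9 stood at the 67.1 percentile and that of PCDHGA11 at the 8.16 percentile. Whether the values are scaled by gene length is not stated. Over 163 genes with a 0 in some library, the smallest value above 0 fell with exonic length (Spearman's rho −0.44 across genes, a description), and the members' exonic lengths of 4749 to 6724 bases differ little beside their levels.

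Direction had no simple order along the cluster. The variable exons of the 22 genes start over a stretch of 158.4 kb, and the members take the places 1, 2, 5, 14, 16, 18 and 22. The genes at places 1, 2, 5 and 14 and the last gene, PCDHGC5, were lower in shCREPT, and those at places 16 and 18 were higher. The variable exon of PCDHGA10 starts 82.5 kb and that of PCDHGA9 72.3 kb from the start of PCDHGA1, so genes with opposite directions lay side by side but for PCDHGB6, which has no row.

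**Figure D4:**
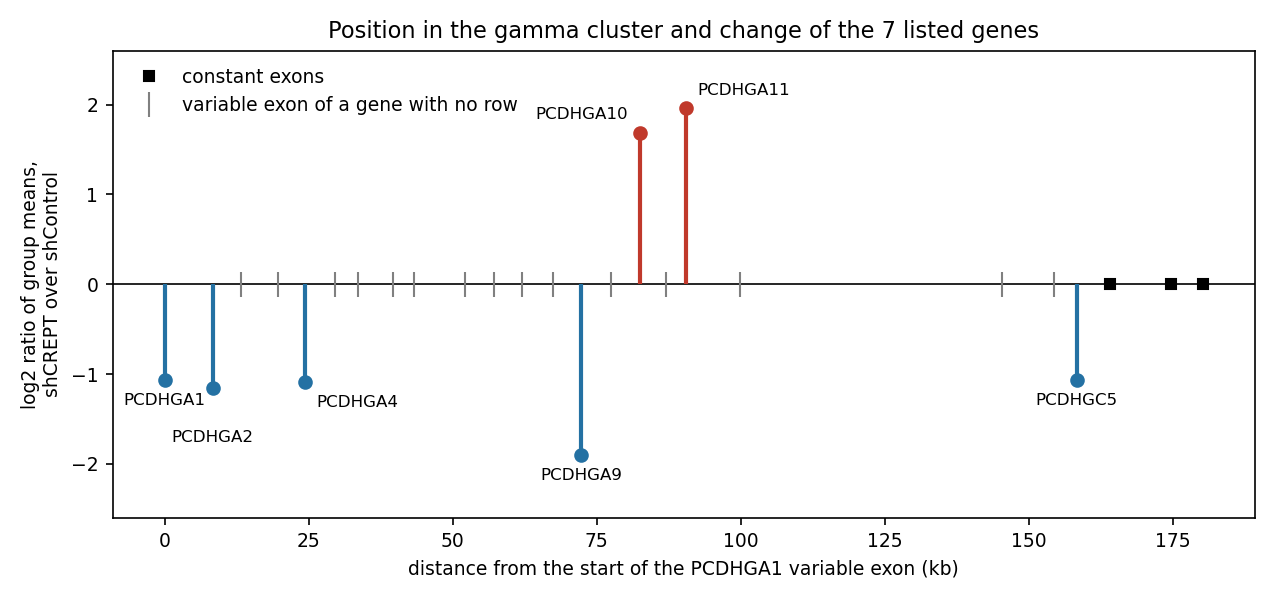
Log2 ratio of group means, shCREPT over shControl, of the 7 listed gamma protocadherins against the distance of each variable exon from the start of the PCDHGA1 variable exon in kb; grey ticks are the 15 genes with no row and black squares the constant exons. PCDHGA10 and PCDHGA11 have ratios of 1.69 and 1.96, and the other 5 genes have ratios from −1.06 to −1.90.

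The promoters of the members were compared because each gene starts at its own, and genes of both directions could then be set beside each other. RefSeq promoter windows on GRCh38.p14, from 250 bases before to 50 bases after the gene start, were at hand for 6 of the 7 members, all but PCDHGC5. Variable protocadherin promoters are known for a conserved sequence element with the core CGCT, at which CTCF binds. The stretches below hold this core in capitals with 25 bases on each side, 5′ to 3′ on the plus strand.
PCDHGA1, chr5:141330394-141330447: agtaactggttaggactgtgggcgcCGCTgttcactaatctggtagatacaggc
PCDHGA2, chr5:141338694-141338747: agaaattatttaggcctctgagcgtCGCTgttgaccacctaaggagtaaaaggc
PCDHGA4, chr5:141354951-141355004: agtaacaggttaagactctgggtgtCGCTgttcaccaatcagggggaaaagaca
PCDHGA9, chr5:141402705-141402758: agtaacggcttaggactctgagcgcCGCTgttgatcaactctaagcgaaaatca
PCDHGA10, chr5:141412922-141412975: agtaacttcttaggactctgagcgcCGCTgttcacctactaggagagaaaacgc
PCDHGA11, chr5:141420963-141421016: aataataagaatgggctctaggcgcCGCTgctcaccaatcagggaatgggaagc
Each of the 6 promoters held CGCT once on the strand of the gene, 40 to 95 bases before the gene start. Of the 54 positions shown, 16 had the same base in all 6 genes, and PCDHGA10 had the same base as PCDHGA9 at 42 of them although the 2 genes moved in opposite directions. On either strand CGCT occurred in 70.0% of the 35116 promoter windows of the RefSeq table, so a match by itself is common. The longer form CGCCGCTG, which contains CGCT and was chosen after the sequences were seen, occurred on either strand in 4.29% of all windows, in 44.0% of the 25 windows of gamma protocadherin genes, and in 4 of the 6 members. Those 4 were PCDHGA1 and PCDHGA9, which were lower in shCREPT, and PCDHGA10 and PCDHGA11, which were higher. The motif thus occurred in members of both directions, while PCDHGA2 and PCDHGA4, which lack it, were lower. Any link between the motif and direction was not tested, and no binding was measured.

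The genes around the members were read from lists chosen with earlier results of these data known. Of the 16 beta protocadherins, 5 have a row and all 5 are marked down in the authors' deposited table, as is PCDHA10, the 1 listed gene of the 15 alpha protocadherins. Of all listed genes, 59.7% are marked down and 40.3% up. PCDHB10 had 2.22, 1.86 and 1.73 in shCREPT, against 4.67, 5.89 and 5.35 in shControl, and PCDHB7 had 2.19, 2.07 and 2.38 in shCREPT, against 5.46, 5.64 and 4.86 in shControl. With PCDHB9 these were the 3 beta genes tested and all 3 were called lower, with a median log2 change of −0.975, PCDHB9 turning to a log2 change of 0.083 under median-of-ratios rescaling. The labels do not say whether reads were counted by strand, and an antisense gene with a row overlaps part of PCDHB10, so the assignment of reads in the overlap is uncertain. The libraries of the groups overlapped for PCDHB12 and PCDHA10. The up-marked PCDHGA10 and PCDHGA11 thus had no counterpart among the 6 listed alpha and beta genes, a difference that was not tested. The 9 other protein-coding genes between PCDHA1 and PCDH1 on chromosome 5 have no row.

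Of the proteins that act on the cluster, none of 18 genes for CTCF, cohesin and DNA or chromatin silencing has a row, and none of 12 genes for partners of gamma protocadherins, such as the kinases PTK2 and PTK2B and the protease ADAM10, has one either. A gene below the authors' threshold has no row, so nothing follows about the levels of these genes. Of 13 protocadherins outside the clusters, PCDH20 and PCDH19 have a row, and PCDH20 fell by 1.48 ± 0.09 on the log2(value + 1) scale (SE; limma adjusted p = 1.47e-05), with PCDH19 too low to be tested. Of 17 classical cadherins and catenins 5 have a row, and CDH5, CDH6 and CDH11 were called lower, while CDH12 and CDH3 were too low to be tested. CDH3 had the other direction, with 0.80, 1.55 and 1.49 in shCREPT, against 0.36, 0.70 and 0.75 in shControl, and it was called higher without the filter (log2 change 0.50, limma adjusted p = 0.0289). The tested genes with the profile most like that of the summed gamma protocadherins, by the root-mean-square difference of centred log2(value + 1) over the 6 libraries, were CA11, a carbonic anhydrase-related protein, the cadherin CDH6, the transcriptional repressor BCL6, the arginine sensor CASTOR1 and the adhesion receptor ADGRA2, with differences of 0.041 to 0.064 among 1180 candidates. The sum is dominated by PCDHGA9, and all listed genes had been selected for the same contrast.

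Most markers of neural and other cell types have no row, and each one given here had a lower mean in shCREPT. Of the 5 astrocyte markers 3 have a row, GFAP, S100B and SLC1A3, and their summed value was 72.5 to 88.9 in shCREPT libraries and 498 to 528 in shControl libraries. Of the 8 neuronal markers NEFL and DCX have a row, with a sum of 56.4 to 58.3 in shCREPT and 251 to 276 in shControl, almost all of it NEFL. DCX was listed at 0 in the 3 shCREPT libraries and at only 0.08, 0.06 and 0.04 in shControl. It was not called without the filter (limma adjusted p = 0.26). Of 4 endothelial markers 2 have a row, with 11.6 to 13.7 in shCREPT and 43.3 to 45.3 in shControl. COL1A2 was the 1 listed of 4 fibroblast markers, with 432 to 492 in shCREPT and 1084 to 1099 in shControl, and 0 of 5 microglia and macrophage markers have a row. SLC1A3 and the endothelial marker KDR lost their calls under median-of-ratios rescaling, with log2 changes of −0.24 and −0.18 (limma adjusted p = 0.207 and 0.124), and DCX was too low for the main test. The part of these differences in the gamma protocadherin values was not tested.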

How the data were processed

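The 6 bulk RNA sequencing libraries, 3 per group, came from U87MG cells. Library preparation used NEBNext Ultra reagents, per the labels' protocols, without a statement on strand. The tools HISAT2 and HTSeq and the build GRCh38 are named, without versions, per the submitters' processing notes. The deposited table holds 1 normalized signal value per library with 2 decimals, and the sources used here do not give its normalization. Per the file headers it also holds the authors' fold change, both as a ratio and in log2, with raw and adjusted p-values. Depth is unknown, and no count test was run.

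Values were taken as log2(value + 1), kept at 1 or more in 3 libraries, and fitted with limma 3.58.1 in R 4.3.3 without covariates over all 1184 genes kept. The fit was tested on simulated data. Ratios used exact permutation tests (scipy 1.17.1). Gene models came from GENCODE v29, which matched 1549 of 1630 identifiers; variable exons were aligned with Biopython 1.88. Every member is named; of each other list at most 4 tested genes are named by adjusted p, and genes too low for the test, such as PCDHA10, PCDH19, CDH3, CDH12 and DCX, were named with their values already seen. The members and lists were chosen with earlier results of these data known. For every pair of libraries, 96.0% or more of the values differed, so none was a copy of another. Each library was counted as a sample of its own, although separate cultures are not stated.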

Additional observations from a re-analysis of the deposited data

How the results depend on the processing

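Of the gamma protocadherins, 4 were called in the main test, 7 with no filter on low values, 1 (PCDHGA9) under median-of-ratios rescaling and 3 with that rescaling and no filter, the last a setting added after the data were seen. The count stayed at 4 with a pseudocount of 0.1 or 5, quantile normalization, limma's trend and robust options, the replicate block and each library left out in turn (4 to 4). A minimum of 10 left no member to test. Over all genes 1159 were called (678 lower, 481 higher), 869 under median-of-ratios rescaling (377 lower, 492 higher), 1094 of 1630 with that rescaling and no filter, 485 of 487 with the minimum of 10, 1156 with the replicate block, and 1137 to 1152 with a library left out. PCDHB9 turned sign under median-of-ratios rescaling, with 0.083 with and without the filter; the cause was not tested. The deviations of libraries with the same number were correlated at −0.109, 0.018 and −0.179, so the numbers were not taken as pairs. Unknown depth limits PCDHGA10, PCDHGA11 and PCDHGA2 most.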
